A study of Mus musculus with 4 samples.

Results

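Most mouse genes with symbols Zfp and a number encode proteins with C2H2 zinc fingers, small domains that fold around a zinc ion and read DNA. Genes were taken by symbol, and the type of finger was not examined. Here 245 genes with such symbols were called clustered, of 21779 protein-coding genes in all. A gene was called clustered when another gene of that name pattern started 200 kb or less away on the same chromosome, in the RefSeq gene table of GRCm38.p6. Chained in this way, the 245 genes formed 55 clusters on 15 chromosomes, 25 of which held 2 genes and the largest 23. A further 152 Zfp genes had no such neighbour and are called solitary. The rule used positions and symbols only, but the family was proposed with peaks of these data known, so its share of genes with a peak is described without a test.

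Chromatin immunoprecipitation and sequencing (ChIP-seq) located RUVBL2 in hypothalamic tissue from male C57BL/J mice, wild type and 8 weeks old. The study holds 2 RUVBL2 ChIP libraries and 2 libraries of input DNA, all 4 from the same kind of tissue, fixed with formaldehyde, and no group was treated. The labels do not say whether numbers 1 and 2 stand for separate animals or pools, so their spread may be technical. Peaks had been called in each ChIP library alone, and values of the input libraries were not used here.

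Many zinc finger genes of this kind carry a KRAB domain, which recruits the co-repressor TRIM28 and, through it, the methyltransferase SETDB1 and HP1 proteins to DNA. The best known targets of this system are transposable elements, and the genes have multiplied by tandem duplication, which is why they lie in clusters. RUVBL2 is an AAA+ ATPase of the INO80, SRCAP and TIP60 chromatin complexes; YY1, a zinc finger factor that binds near gene starts, associates with INO80. Whether a given member carries a KRAB domain was not examined.

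Replicate 1 listed 3943 peaks and replicate 2 listed 6403, with median summit pileups of 16 and 22 reads. A shared region is the joined interval of peaks of both lists that overlap by at least 1 bp, and there were 3111. A gene was counted when the midpoint of a region lay within 3 kb of either gene end. Among markers of cell types, peaks say nothing of expression: shared regions lay at 1 of 7 genes of hypothalamic neurons (Pomc), at 0 of 5 general neuronal markers and at 0 of 12 markers of astrocytes, oligodendrocytes, microglia and endothelium, beside 16.0% of all protein-coding genes. Of the 5 neuronal markers, Rbfox3 had a shared region in its body, and Stmn2 and Tubb3 had a peak near an end in replicate 2. Lists this short say little about the tissue.

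Promoter sequences of the 7 members with a shared region in a pair of clusters on chromosome 8 are given first. These members are not all among the best-ranked. The sequences are the RefSeq promoter windows of GRCm38.p6, from 250 bases before to 50 bases after an annotated start. They are written from 5′ to 3′ on the strand of the gene. Most of these windows are covered only in part by the region. In replicate 2 the summits of all 7 members lay past the end of the window, from 74 bp after the start at Zfp866 to 231 bp at Zfp869. In replicate 1 the same held for Zfp868 (143 bp), Zfp869 (238 bp), Zfp963 (101 bp) and Zfp617 (212 bp). Capitals mark matches to ATGGCGG on either strand, a motif that is the core of the site bound by YY1. The last 2, of neighbouring genes on chromosome 2 without a peak in either list, are shown because they are near copies of each other.
Zfp868 (chr8:69625499-69625798, minus strand): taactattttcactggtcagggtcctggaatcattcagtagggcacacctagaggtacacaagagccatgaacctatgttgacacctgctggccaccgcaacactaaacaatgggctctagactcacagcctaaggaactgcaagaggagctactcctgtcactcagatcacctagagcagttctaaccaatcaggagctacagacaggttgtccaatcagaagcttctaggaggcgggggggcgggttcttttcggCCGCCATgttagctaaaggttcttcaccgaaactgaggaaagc
Zfp869 (chr8:69716853-69717152, minus strand): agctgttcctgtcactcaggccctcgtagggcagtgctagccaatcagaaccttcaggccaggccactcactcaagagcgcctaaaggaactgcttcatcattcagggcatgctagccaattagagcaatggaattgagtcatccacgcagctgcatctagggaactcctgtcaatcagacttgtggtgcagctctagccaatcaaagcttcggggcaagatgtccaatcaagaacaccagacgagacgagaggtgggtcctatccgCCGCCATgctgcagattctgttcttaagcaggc
Zfp963 (chr8:69749913-69750212, minus strand): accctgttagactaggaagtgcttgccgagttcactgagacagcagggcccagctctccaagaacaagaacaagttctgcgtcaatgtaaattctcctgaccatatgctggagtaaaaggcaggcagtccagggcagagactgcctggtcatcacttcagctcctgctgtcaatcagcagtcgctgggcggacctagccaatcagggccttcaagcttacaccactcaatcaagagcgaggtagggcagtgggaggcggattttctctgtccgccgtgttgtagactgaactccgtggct
Zfp866 (chr8:69774862-69775161, minus strand): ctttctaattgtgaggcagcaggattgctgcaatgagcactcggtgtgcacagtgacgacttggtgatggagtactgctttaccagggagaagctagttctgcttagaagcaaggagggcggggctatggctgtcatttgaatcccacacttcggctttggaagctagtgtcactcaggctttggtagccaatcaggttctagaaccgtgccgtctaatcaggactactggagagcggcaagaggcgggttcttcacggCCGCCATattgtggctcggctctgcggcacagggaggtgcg
Zfp882 (chr8:71908356-71908655, plus strand): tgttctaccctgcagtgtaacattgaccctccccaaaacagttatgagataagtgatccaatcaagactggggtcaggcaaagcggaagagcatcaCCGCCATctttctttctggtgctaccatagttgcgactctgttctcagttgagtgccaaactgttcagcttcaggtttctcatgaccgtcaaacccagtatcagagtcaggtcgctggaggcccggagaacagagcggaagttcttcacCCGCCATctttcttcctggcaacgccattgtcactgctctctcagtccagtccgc
Zfp617 (chr8:71922575-71922874, plus strand): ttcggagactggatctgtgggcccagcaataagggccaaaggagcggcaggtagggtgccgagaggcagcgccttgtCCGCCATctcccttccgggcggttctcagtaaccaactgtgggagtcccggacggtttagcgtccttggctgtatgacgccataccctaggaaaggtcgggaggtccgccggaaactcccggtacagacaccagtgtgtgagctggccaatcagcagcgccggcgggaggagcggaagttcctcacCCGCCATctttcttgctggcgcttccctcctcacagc
Zfp961 (chr8:71950816-71951115, plus strand): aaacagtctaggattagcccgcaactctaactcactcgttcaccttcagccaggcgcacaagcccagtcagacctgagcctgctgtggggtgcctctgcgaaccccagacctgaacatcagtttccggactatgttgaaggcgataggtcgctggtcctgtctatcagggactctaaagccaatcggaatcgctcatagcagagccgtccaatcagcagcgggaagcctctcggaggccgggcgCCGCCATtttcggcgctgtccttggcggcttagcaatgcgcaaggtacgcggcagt
Zfp967 (chr2:176520754-176521053, plus strand): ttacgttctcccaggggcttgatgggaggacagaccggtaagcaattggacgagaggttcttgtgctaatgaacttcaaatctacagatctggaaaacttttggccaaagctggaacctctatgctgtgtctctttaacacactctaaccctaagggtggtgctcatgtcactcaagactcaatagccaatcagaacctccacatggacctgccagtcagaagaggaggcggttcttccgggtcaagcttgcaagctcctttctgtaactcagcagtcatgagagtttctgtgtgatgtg
Zfp973 (chr2:176670272-176670571, plus strand): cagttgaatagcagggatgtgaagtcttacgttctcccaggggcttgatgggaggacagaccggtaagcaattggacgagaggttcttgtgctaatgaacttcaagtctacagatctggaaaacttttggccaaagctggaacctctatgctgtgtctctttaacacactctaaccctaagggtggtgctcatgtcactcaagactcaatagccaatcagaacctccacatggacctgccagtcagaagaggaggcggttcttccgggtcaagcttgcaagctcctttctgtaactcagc

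Of the 245 clustered Zfp genes, 41 (16.7%) had a shared region near an end, against 43 of 152 solitary Zfp genes (28.3%) and 16.0% of all protein-coding genes. The share of the clustered genes was thus near the background of all genes and 11.6 percentage points below that of the solitary genes, a difference given as a description. That difference was −6.59 points when clusters were chained over 100 kb, and −1.02 points with the 1000 best peaks of each list, where 4.90% of the clustered genes had a shared region against 2.81% of all genes. The 41 genes had 37 regions, because 4 regions lay within 3 kb of an end of both genes of a pair and counted for both. No further clustered gene had a shared region in its body only, so the count with bodies was again 41, against 17.2% of all genes. In replicate 1 alone, 49 of the clustered genes (20%) had a peak near an end, against 31.6% of the solitary and 19.4% of all genes. In the longer list of replicate 2, 98 (40%) did, against 48.7% of the solitary and 30.4% of all genes. With bodies, replicate 1 gave 49 genes (background 20.9%) and replicate 2 gave 105 (background 32.6%); the 7 added by replicate 2 were Zfp672, Zfp458, Zfp13, Zfp787, Zfp61, Zfp764 and Zfp445, the last of which helps to maintain genomic imprints.

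The genes fell into a few states. Beside the 41, 56 genes had a peak near an end in replicate 2 only, 7 in replicate 1 only, Zfp605 had peaks in both lists that did not overlap, and 140 had no peak near an end in either list. Leaving out replicate 1 therefore moved the count to 98, more than the factor of 1.5 used here, while leaving out replicate 2 gave 49.

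The largest clusters held few of the shared regions. In the 5 clusters of 10 or more genes, 4 of 78 genes (5.13%) had a shared region, against 14 of 50 (28%) in clusters of 6 to 9, 16 of 67 (23.9%) in clusters of 3 to 5 and 7 of 50 (14%) in pairs, beside 16.0% of all protein-coding genes. In replicate 2 alone the same classes had peaks at 25 of 78 (32.1%), 25 of 50 (50%), 30 of 67 (44.8%) and 18 of 50 genes (36%), beside 30.4% of all protein-coding genes. In that library the clusters of 10 or more genes were thus near the background. Of the 55 clusters, 21 had a gene with a shared region, 38 had a gene with a peak of replicate 2, and 17, with 50 genes between them, had no peak near an end in either list. The plot of clusters of 3 or more genes shows this spread.

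**Figure D1:**
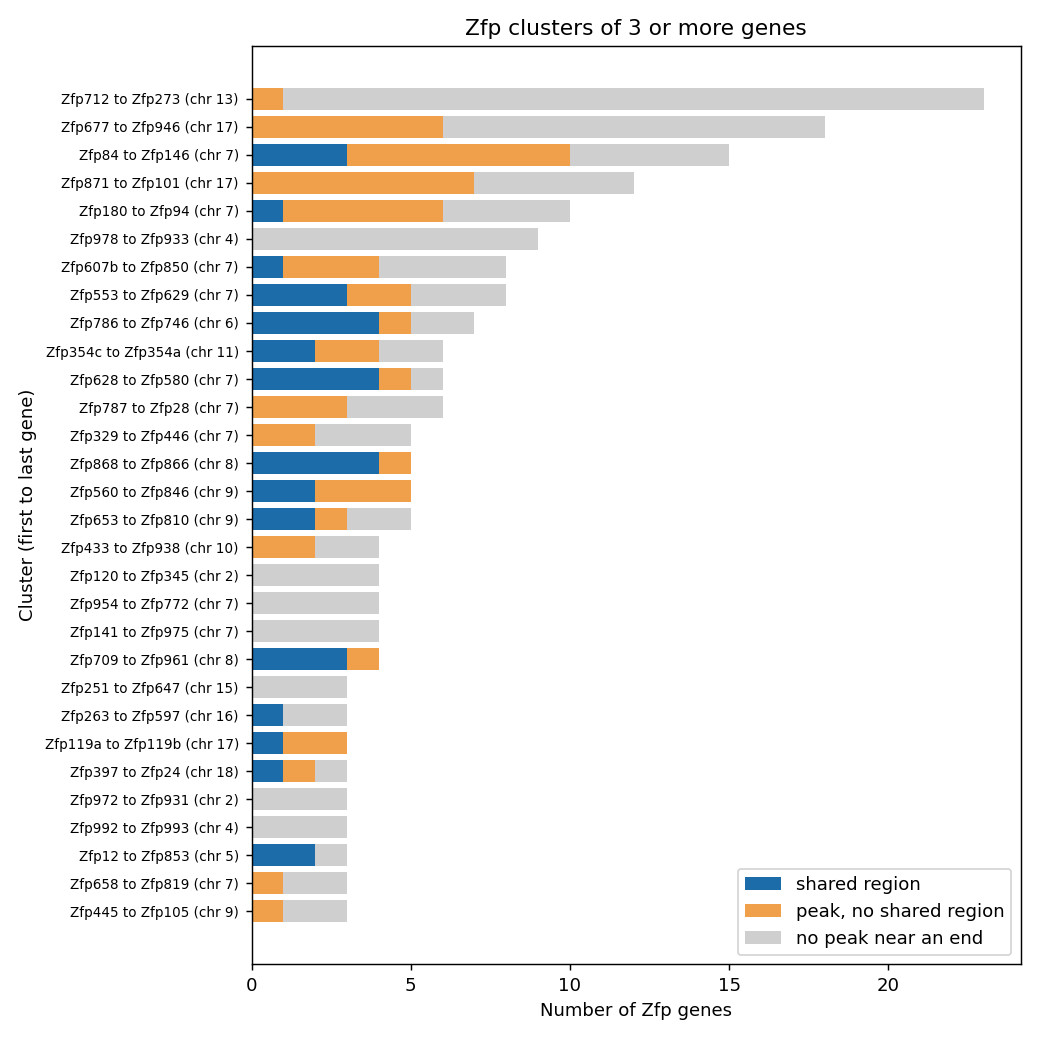
Number of Zfp genes (horizontal axis) in each cluster of 3 or more genes, named by first and last gene, largest at the top; colours give genes with a shared region near an end, with a peak but no shared region, and with no peak near an end. The clusters of 23 and 18 genes at the top have no shared region, while Zfp868 to Zfp866 has 4 of 5 genes with one.

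The largest cluster, Zfp712 to Zfp273 on chromosome 13 (67038594 to 67827000), holds 23 genes over 788 kb and had no shared region. Replicate 1 listed no peak anywhere in this span and replicate 2 listed 2, one of them at Zfp874a with a fold enrichment of 4.94 (95% counting interval 2.99 to 7.74) and the other in the body of Zfp458. The 18 genes of Zfp677 to Zfp946 on chromosome 17 (21383707 to 22456689) likewise had no shared region and no peak of replicate 1, but 6 had a peak of replicate 2: Zfp51, Zfp52, Zfp53, Zfp948, Zfp942 and Zfp943. In the other large cluster of chromosome 17, Zfp871 to Zfp101 (32765496 to 33394637), 6 of 12 genes had a peak of replicate 2 and Zfp101 had one of replicate 1, none of them shared. The 9 genes of Zfp978 to Zfp933 on chromosome 4 (147124882 to 147849126) had no peak in either list.

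On chromosome 7, Zfp84 to Zfp146 (29768552 to 30169775) had shared regions at 3 of 15 genes, Zfp27, Zfp383 and Zfp260. There, Zfp568, which in mouse represses a placental promoter of Igf2, had a peak in replicate 2 only, with a fold of 5.07 (3.19 to 7.71). Zfp180 to Zfp94 (24081877 to 24316698) had 1 of 10, Zfp180. Zfp607b to Zfp850 (27674661 to 28014210) had 1 of 8, Zfp607b, at a region that lay nearer the end of Map3k10. Zfp553 to Zfp629 (127233061 to 127615785) had 3 of 8: Zfp553, Zfp768 and Zfp689. The gene of the SRCAP remodelling ATPase, Srcap, lies inside this last span and had a shared region near its end, with folds of 12.6 in replicate 1 and 19.2 in replicate 2.

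In 6 clusters, most of the genes had a shared region. They were Zfp868 to Zfp866 (4 of 5) and Zfp709 to Zfp961 (3 of 4) on chromosome 8, Zfp628 to Zfp580 (4 of 6) and Zfp668 with Zfp646 (2 of 2) on chromosome 7, Zfp786 to Zfp746 (4 of 7) on chromosome 6 and Zfp12 to Zfp853 (2 of 3) on chromosome 5. By chromosome, 7 of 9 clustered genes on chromosome 8 and 6 of 13 on chromosome 6 had one, beside 16.0% of all protein-coding genes. None did of 27 on chromosome 13, 16 on chromosome 4, 13 on chromosome 2, 5 on chromosome 15, 4 on chromosome 10 or 4 on X. In replicate 2, peaks lay near an end of 1 of these genes on chromosome 13, 1 on chromosome 15 and 2 on chromosome 10. These 6 clusters were picked out after their values were seen. At Zfp668 with Zfp646, and at Zfp398 with Zfp786, 1 region counted for both genes of the pair. With each region given to the gene of the nearest end only, these pairs would leave their clusters without most of their genes counted. Zfp784 and Zfp580 shared a region too, but Zfp580 had 2 regions near its ends.

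**Figure D2:**
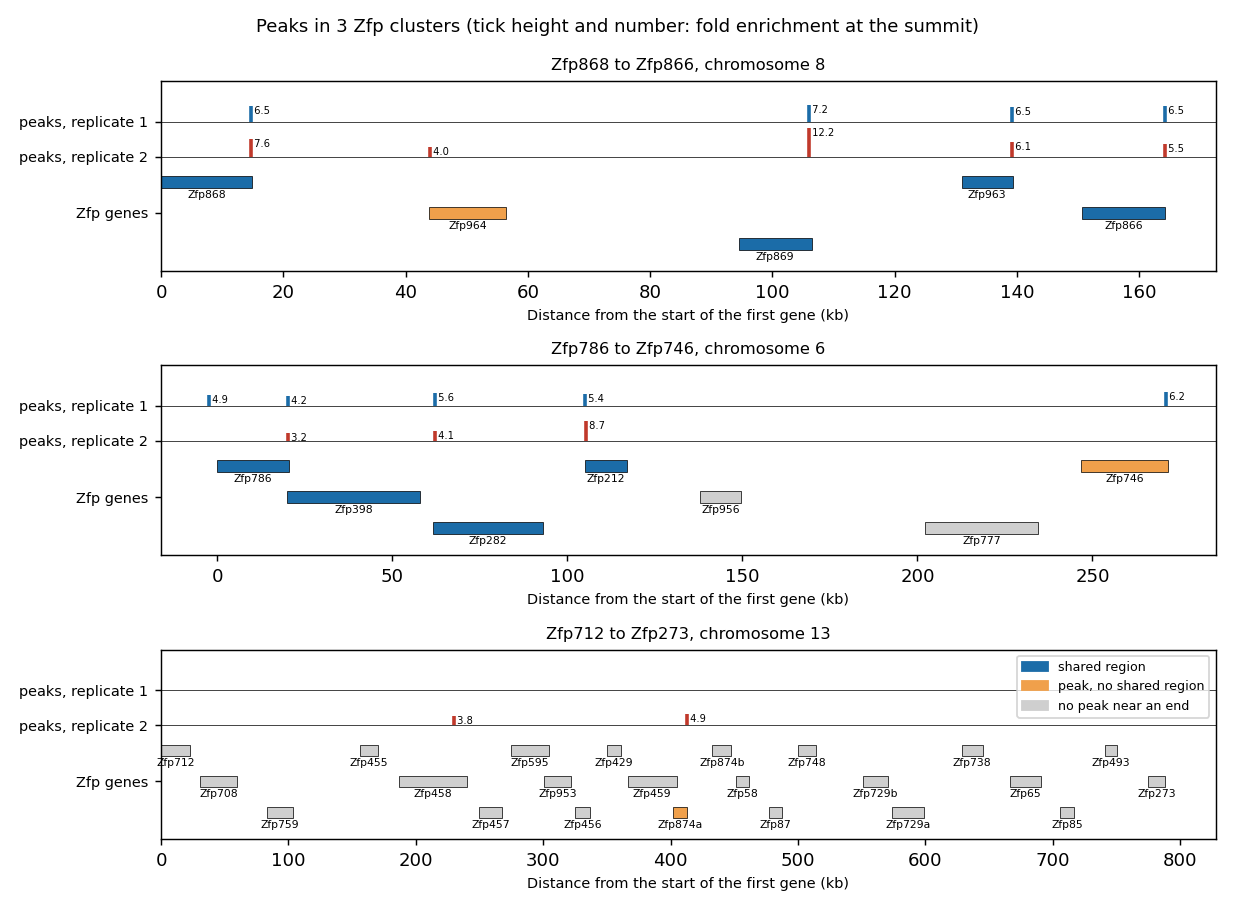
Zfp genes (boxes) and peak summits of replicate 1 (blue ticks) and replicate 2 (red ticks) in 3 clusters, by distance in kb from the start of the first gene; tick height and number give the fold enrichment at the summit, and box colours the state near gene ends. On chromosome 8, 4 of 5 genes have ticks in both rows, and on chromosome 13 replicate 1 has none and replicate 2 has 2.

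Fold enrichments of single genes are those the authors' peak caller gave at each summit, in the order replicate 1 and replicate 2, with 95% counting intervals in brackets. Ranked by −log10 p, and by the lower-placed of its 2 ranks, the best member was Zfp869 on chromosome 8 (region 69716250 to 69716915), with a fold of 7.23 (4.99 to 10.2) in the first library and 12.2 (9.45 to 15.5) in the second. Its summits rested on 31 and 65 reads. Its neighbours Zfp868 (6.55 and 7.64), Zfp963 (6.47 and 6.12) and Zfp866 (6.55 and 5.53) had folds in a narrower range. The remaining gene of that cluster, Zfp964, had a peak in replicate 2 only, with a fold of 4.03 (2.47 to 6.24). Farther along the same chromosome, Zfp882 had folds of 5.76 and 5.77, Zfp617 of 6.09 and 6.18, and Zfp961 of 3.75 and 5.49, while Zfp709 had a peak in replicate 2 only (4.66, 2.78 to 7.40). The 7 regions on chromosome 8 lay 67 to 486 bp inside the gene from its nearer end, measured at their midpoints.

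On chromosome 7, one region (5038179 to 5038711) spanned the facing ends of Zfp784 and Zfp580, with its midpoint 1 bp inside Zfp784 and 74 bp from Zfp580, and with folds of 5.997 (4.16 to 8.39) and 9.47 (7.01 to 12.5). The region of Zfp668 and Zfp646 (127875412 to 127877247) also spanned their facing ends, with its midpoint 507 bp inside Zfp668 and 585 bp from Zfp646, and with folds of 4.32 (2.72 to 6.56) and 7.78 (5.43 to 10.8); human ZNF668 is linked to DNA repair. Zfp768 had folds of 7.40 and 9.04, Zfp606 of 7.09 and 7.99, Zfp553 of 6.40 and 6.13, Zfp524 of 4.76 and 7.60, Zfp260 of 5.23 and 4.78 and Zfp689 of 3.91 and 4.47. The regions of Zfp553 and Zfp524 also lay within 3 kb of an end of Septin1 and of Fiz1.

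On the other chromosomes, Zfp24, which oligodendrocytes of the mouse need to form myelin, showed the widest gap between the libraries among the 41 genes. Its replicate 1 fold was 4.83 (3.16 to 7.09), its replicate 2 fold was 11.3 (8.36 to 15.0), and it alone of the 41 had intervals that did not overlap. Zfp653 had the highest fold of replicate 1 among them, 8.63 (5.79 to 12.4), and a replicate 2 fold of 7.09 (4.86 to 10.0); its region also lay at an end of Ecsit. Zfp248 had folds of 6.16 and 5.53, Zfp212 of 5.36 and 8.68, Zfp846 of 5.55 and 5.63, Zfp213 of 4.19 and 4.82, Zfp959 of 6.78 and 4.96, Zfp597 of 4.62 and 4.19 and Zfp2 of 4.74 and 4.87. Zfp959 lies beside Zfp119a, whose promoter window was 92.5% identical to its own, so reads of the 2 genes may not all have been placed apart.

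**Figure D3:**
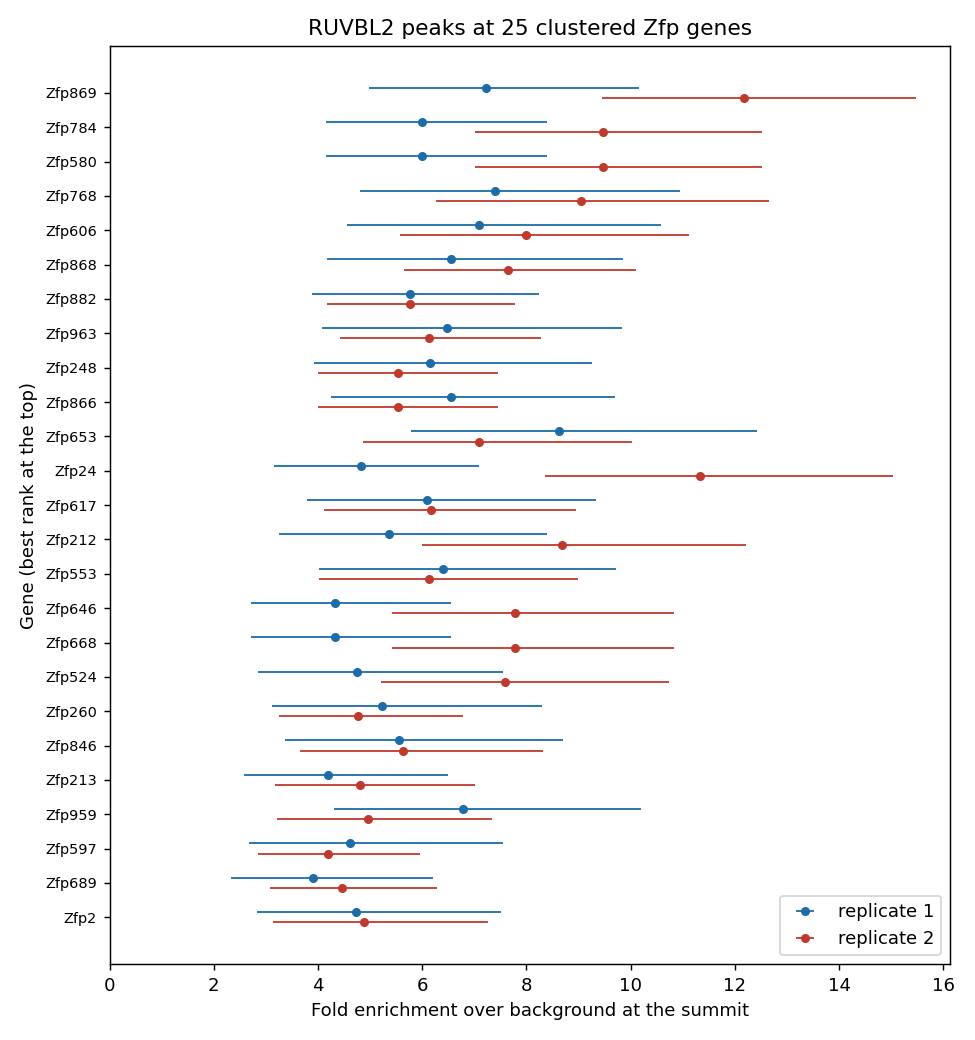
Fold enrichment over background at the summit (horizontal axis) of the 25 clustered Zfp genes with the best worst-case rank, best at the top, in replicate 1 (blue) and replicate 2 (red); bars are exact 95% Poisson intervals that treat the background as known. The intervals of the 2 replicates overlap for every gene shown but Zfp24.

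The other 16 genes ranked lower in at least one list, with replicate 1 folds between 3.34 and 7.40 and replicate 2 folds between 3.19 and 5.49. They were Zfp180, Zfp316, Zfp637, Zfp961, Zfp354b, Zfp12, Zfp628, Zfp810, Zfp574, Zfp266, Zfp282, Zfp27, Zfp383, Zfp607b, Zfp398 and Zfp786. Zfp628 is needed for male fertility in mice, and human ZNF282 was described as a repressor of a retroviral promoter. Zfp398 with Zfp786, and Zfp27 with Zfp383, shared 1 region each. The region of Zfp574 lay nearer an end of Grik5, a kainate receptor gene. With each region given to the protein-coding gene of the nearest end only, 36 of the 41 genes remained counted, against 12.7% of all protein-coding genes under that rule.

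Among genes with a peak in 1 list only, the 5 with the largest −log10 p all came from replicate 2. Their folds were 8.50 (5.83 to 12.02) at Zfp119a, 7.52 (5.19 to 10.6) at Zfp426, 6.31 (4.35 to 8.88) at Zfp871, 7.30 (4.87 to 10.6) at Zfp397 and 6.41 (4.300 to 9.22) at Zfp719. These values lie within the range of the shared regions in the same library. The 7 genes of replicate 1 only were Zfp101, Zfp746, Zfp111, Zfp84, Zfp30, Zfp146 and Zfp809. Zfp746 (also called PARIS), a repressor of the gene for PGC-1α, had a fold of 6.16 (3.83 to 9.45), and Zfp809, which silences retroviruses in mouse stem cells through TRIM28, had 5.24 (3.13 to 8.32).

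In strength, the regions of clustered genes had medians close to those of other genes. Their 37 regions had a median fold of 5.23 in replicate 1, against 5.55 for the 43 regions of solitary Zfp genes and 5.14 for the 2740 regions at all protein-coding gene ends. In replicate 2 the medians were 5.21, 5.53 and 5.38. Median summit pileups were 18, 18 and 17 reads in replicate 1 and 28, 28 and 25 reads in replicate 2. At clustered genes with a peak of replicate 2 but no shared region, the median fold was 4.46 on 19 reads. The summits of both replicates lay a median of 60 bp apart in the 41 genes, and within 100 bp of each other in 27. The fold was higher in replicate 2 for 25 of the 41 genes, with a median ratio of 1.03. Both ranks were within the best 1000 of their lists for 12 of the 41.

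Most regions lay at gene starts, as they did over all genes. The promoter table gave a strand for 36 of the 41 genes, and in 35 of these the nearer gene end was the start; the exception was Zfp846, whose region lay 1982 bp beyond the other end. For 31 of the 36 (86.1%) the summit lay within 1 kb of a start in the table, a share near the 88.6% of solitary Zfp genes and, in replicates 1 and 2, the 86.6% and 86.7% of all protein-coding genes. The starts given for Zfp580, Zfp597 and Zfp786 lay farther away, although the regions overlapped the 5′ ends of these genes in the gene table. The region of Zfp383 lay before that gene, with its midpoint 1816 bp from the start, and overlapped the start of its neighbour Zfp27.

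Summits sat just downstream of the start. Of the 31 genes, 26 in replicate 1 and 28 in replicate 2 had the summit 1 to 300 bp downstream, with medians of 127 and 124 bp. Among all protein-coding genes with a summit within 1 kb, it lay 1 to 300 bp downstream in 1326 of 2488 and in 1368 of 2491. It lay downstream at any distance within 1 kb in 65.7% and 64.9% of them, and the median was 88 bp in both. Among 31 solitary Zfp genes it lay 1 to 300 bp downstream in 12 and in 17. At any distance within 1 kb it lay downstream in 16 and in 21 of them, against 26 and 28 of the clustered genes. Since offsets in the 2 libraries come from the same regions, they do not count as independent sets.

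**Figure D4:**
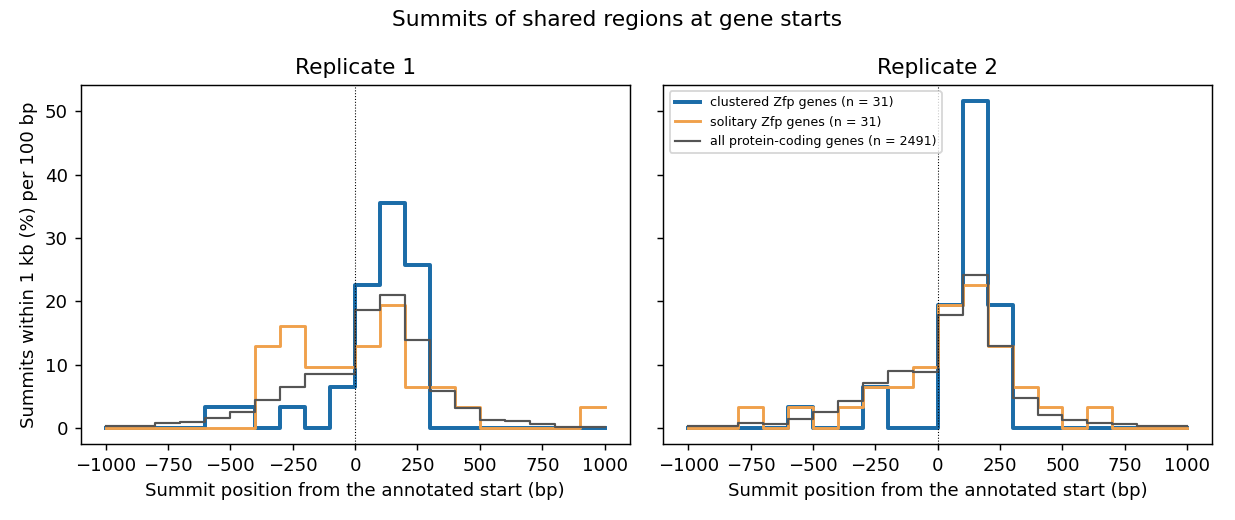
Position of peak summits of shared regions from the annotated start in bp (horizontal axis; positive is downstream) as a percentage of summits within 1 kb per 100-bp bin, for clustered Zfp genes (blue), solitary Zfp genes (orange) and all protein-coding genes (grey), in each replicate. Of the clustered genes with a summit within 1 kb of a start, 26 of 31 in replicate 1 and 28 of 31 in replicate 2 have it within 300 bp downstream.

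Promoter windows of clustered genes with a shared region held more CpG dinucleotides than those without, by their medians. A window was at hand for 211 of the 245 genes. The median number of CpG dinucleotides was 19 in 36 genes with a shared region, 14 in 49 genes with a peak of replicate 2 only and 9 in 118 genes with no peak near an end. The same order was seen over all protein-coding genes, with a median of 25 in genes with a shared region and 10 in those without. Among clustered genes with 20 or more CpG in the window, 17 of 42 (40.5%) had a shared region, against 24 of 52 solitary Zfp genes (46.2%) and 31.9% of all such genes. With 10 to 19 CpG, the class with the most clustered genes, it was 13 of 86 clustered genes (15.1%). That was below the 8 of 37 solitary genes (21.6%) and the 17.0% of all such genes. With 5 to 9 CpG it was 5 of 64 clustered genes (7.81%), 3 of 22 solitary genes (13.6%) and 5.57% of all such genes. With 0 to 4 CpG it was 1 of 19 clustered genes (5.26%), 0 of 9 solitary genes and 1.92% of all such genes. Clustered genes as a whole had a lower median CpG number, 11, than solitary Zfp genes, 18. The part of CpG number in the shares was not tested.

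**Figure D5:**
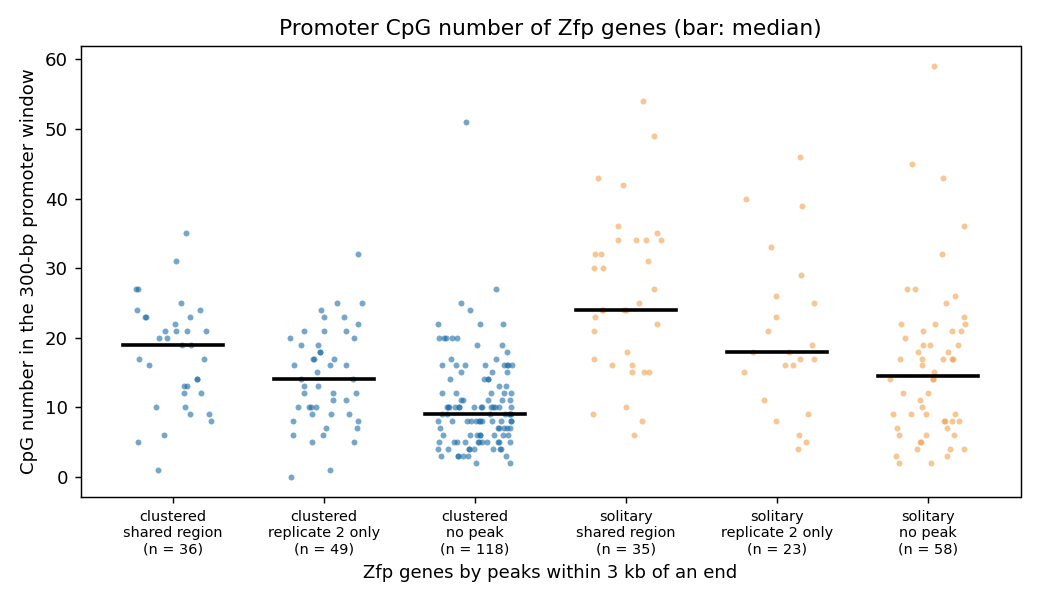
CpG number in the 300-bp promoter window (vertical axis) of each Zfp gene with a window, for clustered (blue) and solitary (orange) genes by the peaks near their ends; black bars are medians. The medians of clustered genes are 19 with a shared region, 14 with a peak of replicate 2 only and 9 with no peak.

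Members with few CpG also had shared regions. Zfp868, Zfp869 and Zfp963, whose promoters are printed, had 6, 8 and 9 CpG and are among the best-ranked members, and Zfp260 had 5. The motif ATGGCGG was found, on either strand, in 10 of 36 windows of clustered genes with a shared region (27.8%), in 7 of 49 with a peak of replicate 2 only (14.3%) and in 6 of 118 with no peak (5.08%). Over all protein-coding genes it was in 14.4% of windows with a shared region and 3.67% of those without, in solitary Zfp genes in 6 of 35 (17.1%) and 1 of 85 (1.18%), and in 4.05% of all 32851 windows of the table. Of the 10 clustered genes, 6 lie in the pair of chromosome 8 clusters: Zfp868, Zfp869, Zfp866, Zfp882, Zfp617 and Zfp961. In all 6 at least 1 match was on the strand opposite to the gene and began between 6 bases before and 18 bases after the start. In Zfp868 it began at base 8 counted from the start as base 1, in Zfp866 at 10, in Zfp617 at 14 and in Zfp869 at 18. Zfp882 and Zfp617 had a further match more than 150 bases before the start. These 6 genes are neighbours and do not count as independent, so the 27.8% rests largely on this pair of clusters.

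The other motifs searched on both strands varied less with the state of the gene. CCAAT, the core of the site of NF-Y, was in 50% of windows with a shared region and 61.9% with no peak. It was in 39.2% of the windows of all protein-coding genes, whose share is given in brackets below. GGGCGG, an SP1-type box, was in 47.2% and 35.6% (46.3%), and CCGGAAG, an ETS-type site, in 19.4% and 22.9% (11.9%). GCATGCG was in 8.33% and 5.93% (4.50%), ACTACAA in 8.33% and 6.78% (3.82%), TCGCGA in 2.78% and 0.847% (3.45%), and TATAAA in 2.78% and 4.24% (13.3%). CACGTG was in none of the 36 windows with a shared region and in 10.2% of those with no peak (7.91%). Over all protein-coding genes, GGGCGG was in 68.9% of windows with a shared region and 41.9% without, and CACGTG in 10.4% and 7.4%. None of these words contains another. A match is a string of letters and was not shown to be a binding site.

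Promoter windows with stretches copied elsewhere in the promoter table were found mainly among members without a peak. A window was called partly copied when at least 1 of its words of 50 bases also stood at another place in the promoter table. This held for 1 of 36 windows with a shared region (Zfp959), for 3 of 49 with a peak of replicate 2 only and for 34 of 118 with no peak (28.8%), against 9.99% of windows of all protein-coding genes. Fewer windows were copied in at least 50% of their words. They were 0 of the 36, 2 of the 49 and 15 of the 118, and 892 of 17492 over all protein-coding genes. Zfp955a and Zfp955b had identical windows. Those of Zfp943 and Zfp758 were 94.8% identical and those of Zfp119a and Zfp959 92.5%, and both of these pairs include a gene with a peak. The windows of Zfp967 and Zfp973 were 83.7% identical in an end-to-end alignment, with every word of 50 bases found at another place. Reads of such windows cannot always be placed at 1 site, and how the authors treated them was not stated; its part in the missing peaks was not tested. Without the partly copied genes, 40 of 207 clustered Zfp genes (19.3%) had a shared region, against 29.5% of 146 solitary ones. Genes without a window could not be checked and were kept in these counts. The share of all protein-coding genes was not computed under this setting and was 16.0% without it. In the largest cluster, 2 of 20 windows were partly copied, and in Zfp978 to Zfp933 5 of 7 were.

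The members nearest to the edge of the 3 kb window were Zfp846 at 1982 bp and Zfp383 at 1816 bp inside it, and Zfp566 at 4442 bp and Zfp865 at 5219 bp outside it. The widest gap bridged within a cluster was 197164 bp, from Zfp433 to Zfp781, and the narrowest not bridged was 202844 bp, from Zfp94 to Zfp428. Neighbouring starts in clusters lay a median of 37683 bp apart.

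Genes of the TRIM28 silencing machinery, with which KRAB zinc finger proteins work, were examined as a list of 25. Shared regions lay near an end of 11 of them (44%), against 16.0% of all protein-coding genes. Trim28 itself had a replicate 1 fold of 6.16 (3.83 to 9.45) and a replicate 2 fold of 10.6 (7.86 to 14.1), whereas Setdb1 had no peak near an end in either list. Cbx3, an HP1 protein, had 9.84 and 11.3, and its relative Cbx5 had 7.19 and 6.07. Morc3, an ATPase of silenced chromatin, had 6.47 and 7.35, Smarcad1, a remodeller, 3.92 and 7.35, and Atf7ip, the partner of SETDB1, 2.90 and 4.46. The HUSH subunits Mphosph8 (4.62 and 5.42) and Pphln1 (4.62 and 7.74), the deacetylase Hdac1 (3.70 and 3.60) and the modifier gene Sumo2 (4.31 and 8.47) also had shared regions. Among the rest, Cbx1, Tasor, Dnmt1, Dnmt3a and Dnmt3b had no peak near an end, though Tasor and Dnmt3a had a shared region in the body. Hdac2, Chd3, Chd4, Uhrf1, Morc2a, Resf1 and Daxx had a peak near an end in replicate 2 only, and Atrx in replicate 1 only. In replicate 2 alone, 18 of the 25 (72%) had a peak near an end, against 30.4% of all protein-coding genes. The list is short and was written with results of these data known.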

How the data were processed

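RUVBL2 ChIP-seq peak lists of 2 libraries were used. Per the submitters' processing notes, the tools were Bowtie2 2.3.4.1 and MACS2 2.1.0, after bcl2fastq 2.17 and Trimmomatic 0.33, with ChIPseeker also named, on GRCm38; their settings and the peak calling control were not given in the sources used here. Per the labels' protocols, 15 PCR cycles and paired 150-bp reads were used. The deposited peak lists give for each peak a fold enrichment (a ratio over background), a −log10 p and a −log10 q; the deposited score is that −log10 q times 10 without its decimals. The deposited summit lists repeat summits and −log10 q. Peaks were called by the authors per library, and the list of replicate 2, titled Hyp2, holds names starting with Hyp3; it was used as filed under that sample.

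Pileup and background at each summit were solved from fold and −log10 p, with 1 added to both in the fold; a whole-number pileup matched 100% of peaks in each list within a relative tolerance of 0.0001. Total reads are unknown. The lowest background was 2.24 reads in replicate 1 and 2.65 in replicate 2. The 95% intervals are exact Poisson intervals of the pileup with the background fixed and cover counting error only, since reads carry no molecular identifiers. Genes came from the RefSeq table of GRCm38.p6, without mitochondrial genes and rows starting within 3 Mb of a chromosome's first base (Y kept). Gene strand and promoter windows came from the RefSeq promoter table, matched by gene ID for 211 of 245 clustered and 120 of 152 solitary Zfp genes; the outermost start was used for base composition and the start nearest the summit for offsets. Steps were tested on simulated data. The members, lists, motifs and rules were chosen with earlier results of these data known. Named genes were, by rule, the 25 best by worst-case rank (the lower-placed of a region's 2 ranks by −log10 p), the 5 best in 1 list only, those at the edges of the rule, the 8 largest clusters and TRIM28 partners (1 partner is not reported here); other names were chosen after their values were seen. Planned counts of zinc fingers and KRAB boxes were not made, since no protein sequences were used here. With 2 ChIP libraries of 1 group, no test between samples was made. Python 3.11.15, pandas 2.3.3, scipy 1.17.1 and matplotlib 3.10.9 were used.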

Additional observations from a re-analysis of the deposited data

How the results depend on the processing

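No paired analysis was possible because the input libraries gave no values here and the ChIP libraries form 1 group. Of 101 alternative values under 13 settings, 76 stayed within 1.5 times the value (counts and CpG) or within its 95% binomial interval (shares), 25 moved and 0 reversed. With only peaks of a −log10 q of at least 5, clustered Zfp genes with a shared region near an end, and those with bodies counted, fell to 22 each. With the 1000 best peaks of each list they were 12 each, in 8 clusters, and the share of clustered minus that of solitary genes was −1.02 percentage points. In these settings the shares of clustered, solitary and all protein-coding genes were 8.98%, 17.8% and 7.93% (q) and 4.90%, 5.92% and 2.81% (1000 best), so that with the 1000 best peaks the clustered share was above that of all genes by more than 1.5 times. With 1 library left out, genes with a peak near an end ranged from 49 to 98, genes with bodies counted from 49 to 105, clusters from 23 to 38, and the gap to solitary genes from −11.6 to −8.68 points. Windows of 1 and 5 kb, the overlap rule, starts within 100 or 500 kb, the nearest end only, any base in the window and, chosen after seeing the data, leaving out partly copied promoters gave 35 to 46 genes. The gap to solitary genes was negative in each of the 13 settings, and −6.59 points with starts within 100 kb. The median summit rested on 16 or 22 reads and total reads are unknown; a missing peak does not show that binding was absent, and the part of depth was not tested. Counts of zinc fingers and KRAB boxes under each setting were not run.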

Other observations

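Other C2H2 genes and the neighbours inside the clusters were looked at beside the members. Of 28 genes named Zscan or Zkscan with a number, or Zik1, 4 (14.3%) had a shared region near an end, beside 16.0% of all protein-coding genes: Zkscan17 (folds 3.27 and 6.77 in replicates 1 and 2), Zkscan3 (4.20 and 7.08), Zkscan8 (4.32 and 5.37) and Zscan29 (4.93 and 4.68). In replicate 2 alone, 14 of the 28 (50%) had a peak, beside 30.4% of all genes. Of 88 protein-coding genes of other names that lie inside the spans of Zfp clusters, 7 (7.95%) had a shared region near an end, beside the same 16.0%. They were Lrrc61, Repin1, Fiz1, Prr14, Fbrs, Srcap and Ecsit, and Fiz1 and Ecsit share their region with the members Zfp524 and Zfp653. These genes were named after their values were seen.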
